A study of Mus musculus with 13 samples.

Results

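The 44 genes described here encode the machinery that copies DNA in S phase and its close controls. They are 4 origin licensing factors, the 6 subunits of the MCM2-7 helicase, 8 helicase activators and 8 polymerase and primase subunits. Next come 6 genes of the sliding clamp and its loader, 4 that join or protect the lagging strand and 4 enzymes of nucleotide supply. The last 4 form a G1/S control group: Ccne1, Ccne2, E2f1 and, placed with them, Uhrf1. The genes were taken by symbol from a set list, and all 44 were found among the 46679 genes of the deposited tables. RNA was sequenced from whole tissue of female FVB mice aged 10 weeks. Tumors grew from Met1 mouse mammary carcinoma cells, of which 250000 were placed in the inguinal mammary fat pads at 8 weeks of age, 2 weeks before tissue was taken. The 13 libraries came from 8 mice and 2 preparation batches. They were 3 tumors (mice 6877, 6880 and 6881, batch 2), 4 lungs of tumor-bearing mice (6879, 6880 and 6881 in batch 1, 6877 in batch 2), and 6 libraries of lungs of 4 mice without tumors, called normal lungs (6886, 6887, 6888 and 6893 in batch 2, with 6886 and 6888 also prepared in batch 1). All tumors derive from 1 cell line and hold host cells as well as Met1 cells.

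In a dividing cell the origin recognition complex, CDC6 and CDT1 load the MCM2-7 helicase onto DNA in G1. The kinases CDC7-DBF4 and cyclin E-CDK2, with MCM10, CDC45 and the GINS complex, then turn it into a moving helicase. Polymerase alpha-primase starts each strand, polymerases epsilon and delta extend them on the PCNA clamp that the RFC complex loads, and many of these genes are known targets of E2F transcription factors held back by the RB family. Most cells of the adult lung are resting, and a growing carcinoma holds many cells in S phase. In bulk tissue, fewer cells of a type and less RNA per cell cannot be told apart.

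Promoter sequences of 4 members are shown because these genes had among the larger (Mcm5, Mcm6, Rfc3) or the smaller (Rfc1) tumor differences within their complexes. They are RefSeq windows of assembly GRCm38.p6, 250 bases before to 50 after an annotated start, printed 5′ to 3′ on the gene's strand. Capitals mark exact matches, on either strand, to the E2F-type motifs TTTCCCGC, TTTCGCGC, TTTGCCGC or TTTGGCGC. In Mcm5 and in the first run of capitals of Mcm6, a match on one strand overlaps a match on the other. Mcm5 lies at chr8:75109259-75109558 (plus strand), Mcm6 at chr1:128359656-128359955 (minus), Rfc3 at chr5:151651159-151651458 (minus) and Rfc1 at chr5:65335590-65335889 (minus).
Mcm5: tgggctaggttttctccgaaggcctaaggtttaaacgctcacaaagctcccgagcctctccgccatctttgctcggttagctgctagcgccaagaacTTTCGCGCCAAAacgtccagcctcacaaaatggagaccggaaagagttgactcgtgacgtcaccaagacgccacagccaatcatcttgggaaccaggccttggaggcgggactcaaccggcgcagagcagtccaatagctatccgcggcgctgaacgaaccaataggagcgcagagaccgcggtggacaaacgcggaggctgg
Mcm6: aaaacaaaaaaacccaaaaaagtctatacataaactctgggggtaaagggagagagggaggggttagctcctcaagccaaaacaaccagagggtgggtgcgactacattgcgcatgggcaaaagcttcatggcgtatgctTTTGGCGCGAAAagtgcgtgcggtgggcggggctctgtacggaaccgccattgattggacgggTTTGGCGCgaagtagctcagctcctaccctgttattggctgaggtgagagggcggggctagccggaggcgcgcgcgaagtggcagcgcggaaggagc
Rfc3: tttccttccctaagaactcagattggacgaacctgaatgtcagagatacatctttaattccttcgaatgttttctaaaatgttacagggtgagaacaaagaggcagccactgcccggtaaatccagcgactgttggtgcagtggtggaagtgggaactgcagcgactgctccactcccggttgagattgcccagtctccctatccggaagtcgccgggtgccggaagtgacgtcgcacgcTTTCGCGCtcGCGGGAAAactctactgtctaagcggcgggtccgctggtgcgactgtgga
Rfc1: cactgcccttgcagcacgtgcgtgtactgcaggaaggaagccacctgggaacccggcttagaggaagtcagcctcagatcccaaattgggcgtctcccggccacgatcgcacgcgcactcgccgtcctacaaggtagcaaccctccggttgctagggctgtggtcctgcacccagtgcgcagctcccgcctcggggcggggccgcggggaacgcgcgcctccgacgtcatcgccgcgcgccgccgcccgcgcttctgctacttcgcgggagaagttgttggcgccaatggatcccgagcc

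RefSeq windows were matched for 36 of the 44 members, 43 windows in all. Ccne2, Gins1, Gins2, Gins4, Mcm4, Pole, Prim2 and Rfc2 were not matched. An E2F-type motif lay in 14 of the 43 windows, 32.6%, against 2.26% of the 32851 windows of the whole table and 2.88% of 19952 windows of protein-coding genes. The 14 genes were Cdc6, Cdt1, Gins3, Lig1, Mcm3, Mcm5, Mcm6, Mcm7, Orc1, Pola1, Pold1, Pole2, Rfc3 and Uhrf1. CCAAT, searched on both strands, lay in 53.5% of member windows and 37.4% of all windows, and TTTGAA in 18.6% and 17.9%. Rfc3, a small clamp loader subunit, had 2 E2F-type matches, and Rfc1, the large subunit, had none in its window. Other members went the other way: Mcm7 had 2 matches and a tumor log2 fold change of 1.76, and Mcm2 had none and 2.33. A match is a description of letters, not of binding. The log2 fold change of tumor against normal lung had a median of 2.21 (0.69 to 4.46) over the 14 members with a motif. Over the 22 matched members without one it was 2.36 (0.77 to 4.09).

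Library totals were 8321037 to 13982903 estimated counts. The 44 genes together took 0.291 to 0.302% of protein-coding counts in tumors, 0.0535 to 0.0699% in normal lungs and 0.0581 to 0.0659% in lungs of tumor-bearing mice. The tumors were separate from every lung library in this share, and the lung groups overlapped. The median count of a member was 254 to 316 per tumor library and 36.0 to 86.5 per lung library, so single lung values rest on few reads. Levels below are CPM, counts scaled by library size with TMM factors. Summed alveolar type 2 markers were 12637 to 14496 CPM in batch 2 normal lungs and 191 to 311 CPM in tumors. Most of the tumor sum was Etv5 and Abca3, and Etv5 had 138 to 212 CPM in tumors against 128 to 159 CPM in these lungs. Sftpc, a defining surfactant gene, had 0.312 to 6.94 CPM in tumors against 7712 to 9221 CPM. Mammary epithelial markers summed to 356 to 403 CPM in those lungs and 1172 to 1609 CPM in tumors. Macrophage markers summed to 174 to 195 CPM and 351 to 521 CPM. In 7 of 10 mammary markers all tumors lay above all these lungs, and in 2, Krt19 and Cdh1, below them. Krt19 had 3.98 to 4.68 CPM in tumors against 72.7 to 84.2 CPM. Of 7 macrophage markers 5 lay above and 1, Mrc1, below. Over all genes 29.6% lay above and 30.3% below. Most of the macrophage sum in tumors was C1qa, C1qb and C1qc. Of 10 mammary markers, Wap was at 0 in all 6 normal lung libraries. The part of these cell types in the tumor results was not tested.

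Tumors were compared with the 4 normal lungs of the same batch by edgeR's quasi-likelihood test with Benjamini-Hochberg adjustment over 18038 genes. Of the 44 members, 43 were higher in tumors and 0 lower at adjusted p below 0.05. Of all genes tested, 29.4% were called higher, 27.4% lower and 56.8% either way, and 61.4% had an unadjusted p below 0.05. All 44 log2 fold changes were positive (49.2% of all genes), with a median of 2.32 against -0.02 over all genes. In 43 members the 3 tumors lay above all 4 lungs in CPM, against 29.6% of all genes, and in 0 members below them, against 30.3%. This count depends on the scale: Rpa1 and Pola1 overlapped in TPM scaled over protein-coding genes. Values are listed for tumors of mice 6877, 6880 and 6881 and then for batch 2 normal lungs of mice 6886, 6887, 6888 and 6893. Where a mean is given, it is with the SD over 3 tumors and 4 lungs.

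**Figure D1:**
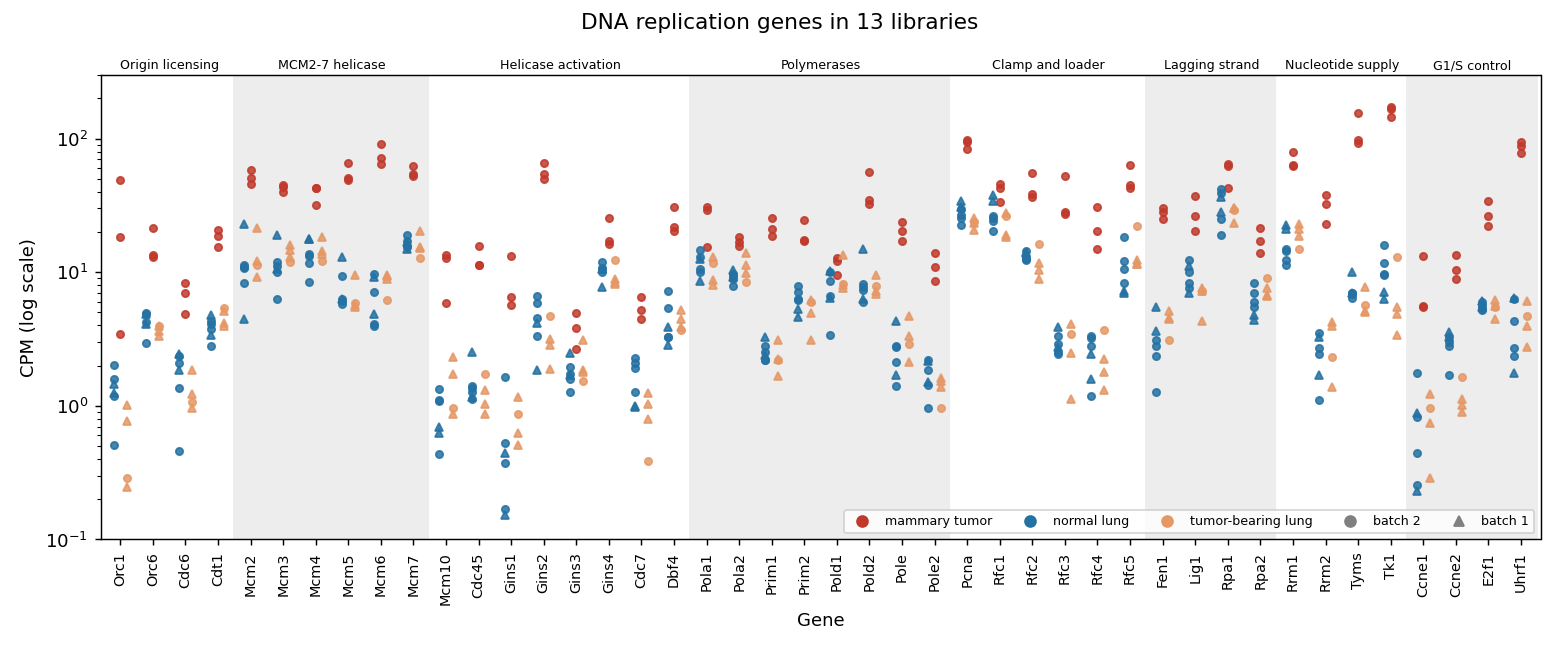
CPM of the 44 genes (log axis) in each of 13 libraries, grouped by role, with circles for preparation batch 2 and triangles for batch 1. Tumor points lie above all lung points of the same gene except in Pold1, Gins3 and Rfc1, where they overlap.

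Among licensing factors the largest difference was in Orc1, the large subunit of the origin recognition complex. Its level was 48.7, 3.43 and 18.5 CPM in tumors and 1.19, 0.508, 1.58 and 2.01 CPM in lungs. The tumors varied over a 14.2-fold range, but each lay above each lung, and the log2 fold change was 4.14 (SE 0.78, adjusted p 0.00152). Without tumor 6877 it was 3.04. Orc6, another subunit of the complex, had 21.4, 12.95 and 13.6 CPM in tumors against 2.98, 4.91, 4.22 and 4.83 CPM in lungs, a log2 fold change of 1.92 (SE 0.26). Cdt1, which loads MCM2-7 together with CDC6, had 15.6, 20.8 and 18.6 CPM against 4.09, 4.32, 2.81 and 3.74 CPM, log2 2.30. Cdc6 itself had 6.73 ± 1.73 CPM in tumors against 1.57 ± 0.855 CPM, log2 2.11, the lowest mean tumor level of the 4. In all 4 genes the tumors and lungs did not overlap.

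All 6 MCM2-7 subunits were higher in tumors, with log2 fold changes from 1.75 (Mcm4) to 3.62 (Mcm6). Mcm6, a subunit of the helicase ring, had 91.8, 65.1 and 72.2 CPM in tumors and 9.75, 4.06, 3.95 and 7.12 CPM in lungs (SE 0.31, adjusted p 1.43e-05). Mcm7, which neighbours other subunits in the same ring, had 54.7, 62.7 and 52.7 CPM against 19.0, 15.4, 15.7 and 17.2 CPM, log2 1.76 (SE 0.14). Mcm2 had 50.6, 58.4 and 45.5 CPM against 8.34, 11.0, 11.2 and 10.8 CPM, log2 2.33. The lowest tumor lay above the highest of these 4 lungs in every subunit. Mcm3 had 39.7, 43.3 and 44.6 CPM against 11.9, 10.1, 6.32 and 11.2 CPM, and Mcm5 had 55.1 ± 9.52 CPM against 6.89 ± 1.72 CPM. Both passed the test, Mcm3 at log2 2.12. Within a library, Mcm6 and Mcm7 were nearer to each other per length in tumors: the log2 ratio of their TPM was -0.56 to 0.13 in tumors, -2.61 to -1.57 in batch 2 normal lungs and -1.72 to -1.27 in tumor-bearing lungs. The log2 TPM ratio of Mcm5 to Mcm4 was 0.25 to 0.71 in tumors, -1.05 to -0.43 in batch 2 normal lungs and -1.26 to -0.88 in tumor-bearing lungs. The strand used in counting is not given in the sources used here. Mcm7 overlaps Cops6 and Ap4m1 on the other strand, and Orc6, Cdc45, Gins2, Rfc2, Rfc4, Rfc5, Fen1, Lig1, Tk1 and Ccne2 also overlap protein-coding genes there. Cdt1 overlaps Gm20388 on its own strand. Reads of such pairs may not be told apart.

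All 8 helicase activators were higher in tumors, with a median log2 fold change of 2.83. The GINS genes, whose products form 1 complex in the active helicase, differed in size from 0.86 (Gins4) to 3.64 (Gins1). Gins2 had 65.6, 54.5 and 49.8 CPM in tumors against 5.88, 6.69, 3.34 and 4.56 CPM in lungs, log2 3.47 (SE 0.23, adjusted p 3.16e-06). Gins4 had 25.6, 16.2 and 17.0 CPM against 10.0, 10.5, 11.9 and 10.8 CPM (SE 0.19, adjusted p 0.00434). Both genes were apart between tissues, but Gins4 by a small margin. The log2 TPM ratio of Gins2 to Gins4 was 0.99 to 1.39 in tumors and -2.20 to -1.03 in batch 2 normal lungs. The length implied for Gins2 is 43.5% of its longest coding transcript, and with a longer one the tumor ratio would be lower. Gins1 had 8.45 ± 4.11 CPM against 0.678 ± 0.659 CPM, and Gins3 3.80 ± 1.13 CPM against 1.63 ± 0.287 CPM. Dbf4, the regulatory subunit of the CDC7 kinase, had 21.8, 30.6 and 20.4 CPM against 3.27, 3.30, 7.29 and 5.38 CPM, log2 2.35, and Cdc7 had 5.40 ± 1.07 CPM against 1.90 ± 0.441 CPM, log2 1.53. Mcm10 and Cdc45, which act on the loaded helicase, rose by 3.44 and 3.31 on the log2 scale.

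Of the 8 polymerase and primase subunits 7 were higher in tumors. The exception was Pold1, the catalytic subunit of polymerase delta, with 12.2, 12.7 and 9.59 CPM in tumors and 6.62, 3.39, 10.0 and 8.67 CPM in lungs. Tumor 6881 lay below lung 6888, and the log2 fold change was 0.69 (SE 0.33, adjusted p 0.105). Pold2, an accessory subunit of the same enzyme, had 56.6, 34.7 and 32.7 CPM against 6.03, 8.13, 7.38 and 7.75 CPM, log2 2.50 (SE 0.22), with every tumor above every lung. Pola1, the catalytic subunit of polymerase alpha, had 30.9, 15.5 and 29.2 CPM against 13.1, 10.6, 14.8 and 10.1 CPM, log2 1.06 (SE 0.26, adjusted p 0.00635). Tumor 6880 was close to lung 6888 in Pola1, and in TPM scaled over protein-coding genes it lay below, at 10.4 against 10.7. The primase subunit Prim1 had 21.8 ± 3.41 CPM against 2.44 ± 0.307 CPM, log2 3.16, and Pole, the catalytic subunit of polymerase epsilon, 20.4 ± 3.24 CPM against 2.28 ± 0.662 CPM, log2 3.17. The remaining 3, Pola2, Prim2 and Pole2, are accessory or primase subunits and rose by 0.94, 1.52 and 2.80 on the log2 scale. The log2 TPM ratio of Pole to Pold1 was -0.88 to -0.08 in tumors against -4.19 to -2.07 in batch 2 normal lungs, and that of Prim1 to Pola1 was 0.14 to 1.21 against -1.96 to -1.30.

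All 6 genes of the clamp and its loader were higher in tumors. Pcna, the sliding clamp, had 93.7, 84.0 and 97.2 CPM in tumors and 29.6, 22.5, 25.3 and 26.8 CPM in lungs, log2 1.82 (SE 0.14). The 3 tumors were within 1.16 times of each other for this gene. Among loader subunits the differences ran from 0.77 (Rfc1) to 3.67 (Rfc3) on the log2 scale. Rfc1 had 42.5, 33.7 and 46.1 CPM against 20.4, 25.3, 26.2 and 24.3 CPM (SE 0.16, adjusted p 0.00300). Its batch 1 normal lungs had 38.1 and 34.4 CPM, within the tumor range, and in a fit of 11 libraries with a batch term its log2 fold change was 0.51 and its adjusted p 0.114. Rfc2 had 55.7, 38.6 and 36.3 CPM against 14.4, 12.4, 12.6 and 12.8 CPM, and Rfc5 63.0, 44.8 and 42.5 CPM against 18.2, 12.2, 8.26 and 10.5 CPM, log2 1.74 and 2.03. Rfc3 had 36.0 ± 14.2 CPM against 2.81 ± 0.405 CPM and Rfc4 22.1 ± 8.01 CPM against 2.64 ± 0.992 CPM. The log2 TPM ratio of Rfc3 to Rfc1 was 1.36 to 2.42 in tumors against -1.19 to -0.48 in batch 2 normal lungs.

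**Figure D2:**
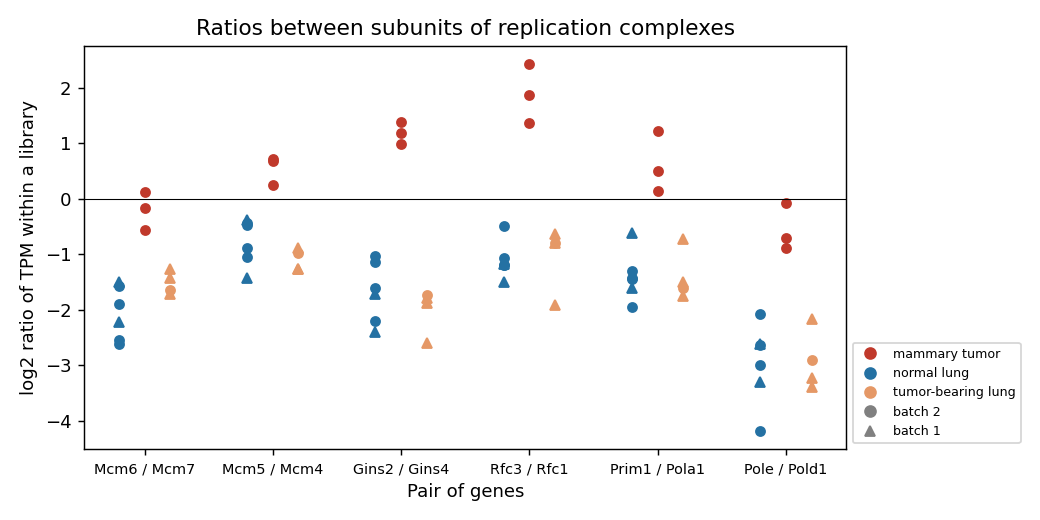
log2 ratio of TPM of 2 genes within each library for 6 pairs of one complex or function, by tissue and batch. For every pair the tumor points lie above the points of both lung groups; the pairs were chosen after their values were seen, so they are a description with no test.

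The 4 lagging strand genes were higher in tumors, with the smallest median of the 8 roles, 1.48 on the log2 scale. Fen1, the flap nuclease, had the largest difference of them, 27.8 ± 2.51 CPM against 2.39 ± 0.807 CPM, log2 3.54. Lig1, the ligase that seals Okazaki fragments, had 26.2, 20.4 and 37.0 CPM against 9.97, 8.30, 12.4 and 7.57 CPM, log2 1.56. Rpa1, the large subunit of the single-strand binding protein, had 64.4, 62.4 and 43.0 CPM in tumors and 39.1, 24.98, 19.1 and 41.8 CPM in lungs. Its lowest tumor was just above its highest lung in CPM. In TPM scaled over protein-coding genes tumor 6881 had 29.7, below batch 2 normal lungs 6886 (31.3) and 6893 (36.4). The log2 fold change of Rpa1 was 0.86 (SE 0.28, adjusted p 0.0234), and it kept its call in 4 of 7 fits that left out 1 library. Of the fits without tumor 6877, tumor 6880 or lung 6887, where it was not called, the highest adjusted p was 0.0919. Rpa2, its partner, had 17.2, 13.8 and 21.4 CPM against 6.03, 5.50, 8.26 and 6.93 CPM, log2 1.40.

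Nucleotide supply had the largest median of the 8 roles, 3.73 on the log2 scale. Tyms, which makes dTMP, had 156, 92.9 and 97.3 CPM in tumors against 7.00, 6.86, 6.41 and 6.93 CPM in lungs, log2 4.09 (SE 0.20, adjusted p 7.56e-07). Tk1, the cytosolic thymidine kinase, had 165, 173 and 144 CPM against 9.75, 11.7, 15.9 and 9.58 CPM, log2 3.79. Both genes were far apart between the tissues. Rrm1, the large subunit of ribonucleotide reductase, had 61.9, 79.6 and 63.1 CPM against 15.0, 12.3, 11.4 and 14.3 CPM, log2 2.37, and its S-phase partner Rrm2 had 31.2 ± 7.65 CPM against 2.45 ± 0.999 CPM, log2 3.67. Rrm2b, the alternative small subunit outside the 44 genes, had 7.78, 10.2 and 12.9 CPM in tumors and 29.3, 22.9, 30.8 and 24.8 CPM in lungs, log2 -1.37 (SE 0.22, adjusted p 0.000578), and every tumor lay below every lung. The log2 TPM ratio of Rrm2 to Rrm2b was 0.50 to 1.74 in tumors and -4.65 to -3.38 in batch 2 normal lungs.

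All 4 genes of the G1/S control group were higher in tumors. Uhrf1, placed in this group though it reads hemimethylated DNA behind the fork, had the largest log2 fold change of the 44, 4.46 (SE 0.31). It had 93.7, 88.7 and 78.5 CPM in tumors and 6.33, 2.71, 4.30 and 2.37 CPM in lungs. E2f1, a factor that drives S-phase genes, had 26.2, 34.1 and 22.3 CPM against 6.03, 5.34, 5.62 and 5.20 CPM, log2 2.32 (SE 0.19). Ccne2, a cyclin partner of CDK2, had 13.4, 8.90 and 10.4 CPM against 3.27, 1.69, 2.81 and 3.01 CPM, log2 2.01. The tumors lay above the lungs in each. Ccne1, the other cyclin E, had 8.12 ± 4.47 CPM against 0.820 ± 0.668 CPM, log2 3.30.

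**Figure D3:**
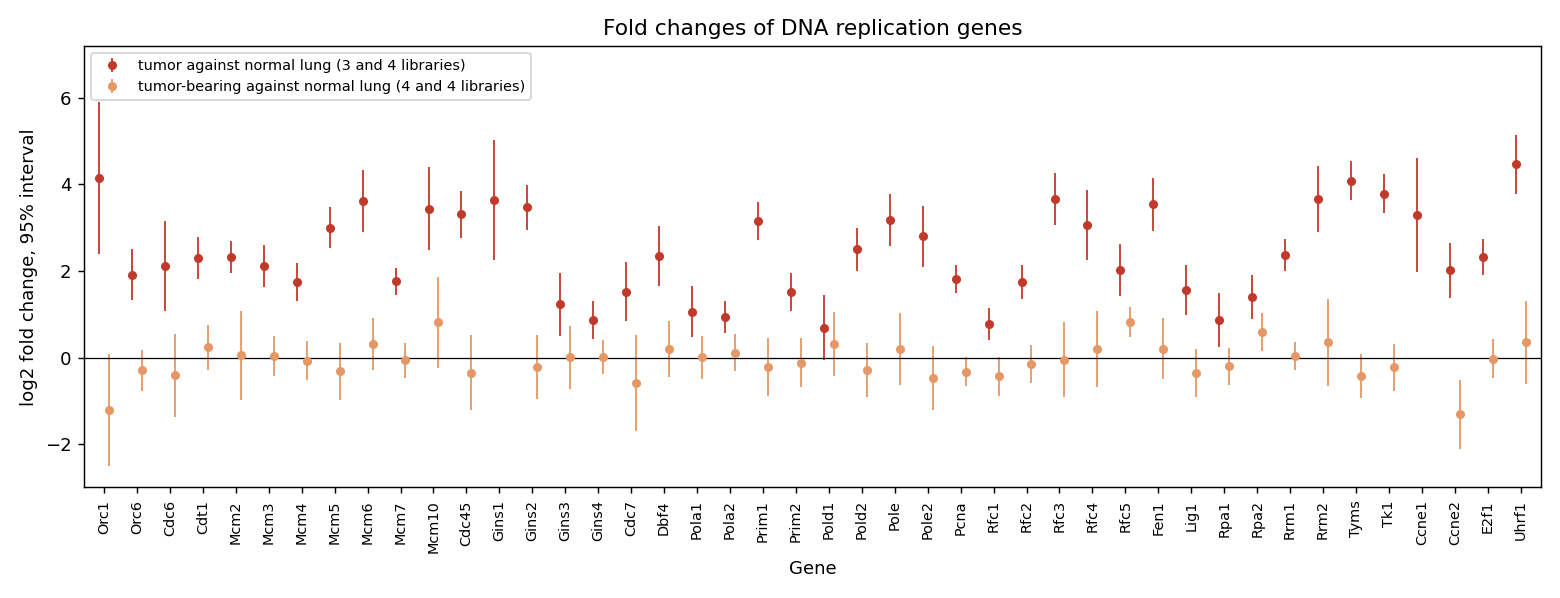
log2 fold change with its 95% interval for each gene, for tumor against normal lung and for tumor-bearing against normal lung. Tumor values run from 0.69 to 4.46 and lung values from -1.31 to 0.83, and all but 3 of 42 lung intervals cover 0.

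Within the 3 tumors the members had a median coefficient of variation of 21.5%. The highest tumor was under 1.5 times the lowest for 24 members and under 2 times for 39. The 5 members over 2 times were Orc1, Mcm10, Gins1, Rfc4 and Ccne1. Tumor 6877 was the highest of the 3 in CPM for 24 of the 44 members. The members' share of protein-coding counts was 0.302, 0.300 and 0.291% in tumors 6877, 6880 and 6881. Of protein-coding TPM it was 0.174, 0.202 and 0.171%. The order of the tumors depends on the scale, so no tumor is read as the highest. Across the 44 members Spearman's rho was -0.40 between fold change and lung level, 0.31 between fold change and tumor level and 0.70 between tumor and lung level. The points share the same libraries and a fold change contains the lung level, so these are descriptions with no test.

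Other genes of the same processes, from set lists, were mostly higher in tumors than in normal lungs. Of all genes tested 29.4% were called higher and 27.4% lower. Of 34 other replication factors 26 were higher and 1 lower (Orc3, log2 -0.51), with a median of 1.39. Of 22 other nucleotide synthesis genes 18 were higher and 2 lower (Rrm2b and Impdh1, at -1.55), median 1.90, and of 20 mitosis genes all 20 were higher, median 3.93. Chaf1a, a histone chaperone subunit that binds PCNA, rose by 3.40, Gmnn, the CDT1 inhibitor, by 2.70, and Dnmt1, the maintenance methyltransferase, by 1.56. Dctpp1, Shmt2 and Ctps of nucleotide metabolism rose by 3.11, 2.38 and 1.69, and the mitosis genes Birc5, Ccnb1 and Tpx2 by 6.91, 5.41 and 4.85.

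Among genes that regulate the 44, some were higher and some lower. Of 24 RB, E2F and cyclin genes 14 were higher, among them Myc (2.79), Cdk4 (2.43) and Tfdp1 (1.97), and 5 lower: Rbl2, E2f2, Tfdp2, Cdk6 and Ccnd2, with a list median of 1.35. Of 7 CDK inhibitors 4 were higher and 2 lower (Cdkn1a and Cdkn1c), with a median of 0.66. Over all genes tested 29.4% were higher and 27.4% lower, so nothing is read from the number lower in these lists. The following pairs were picked after their values were seen. Ccnd1, a cyclin that activates CDK4, had 430.3, 459 and 400.1 CPM in tumors and 151, 143, 107 and 126 CPM in lungs, whereas its relative Ccnd2 had 33.9, 12.7 and 35.3 CPM and 181, 189, 255 and 240.1 CPM, log2 1.72 and -2.97. The E2F dimer partners Tfdp1 and Tfdp2 had log2 1.97 and -1.84. Cdkn2a, an inhibitor and regulator of p53 and RB, had 85.9, 77.6 and 57.3 CPM against 2.01, 2.88, 1.93 and 1.64 CPM, log2 5.12. Cdkn1c, another CDK inhibitor, had 0.239, 0 and 0.390 CPM in tumors and 23.5, 17.5, 23.7 and 26.1 CPM in lungs. No tumor overlapped a lung in Ccnd1, Ccnd2, Cdkn2a or Cdkn1c.

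**Figure D4:**
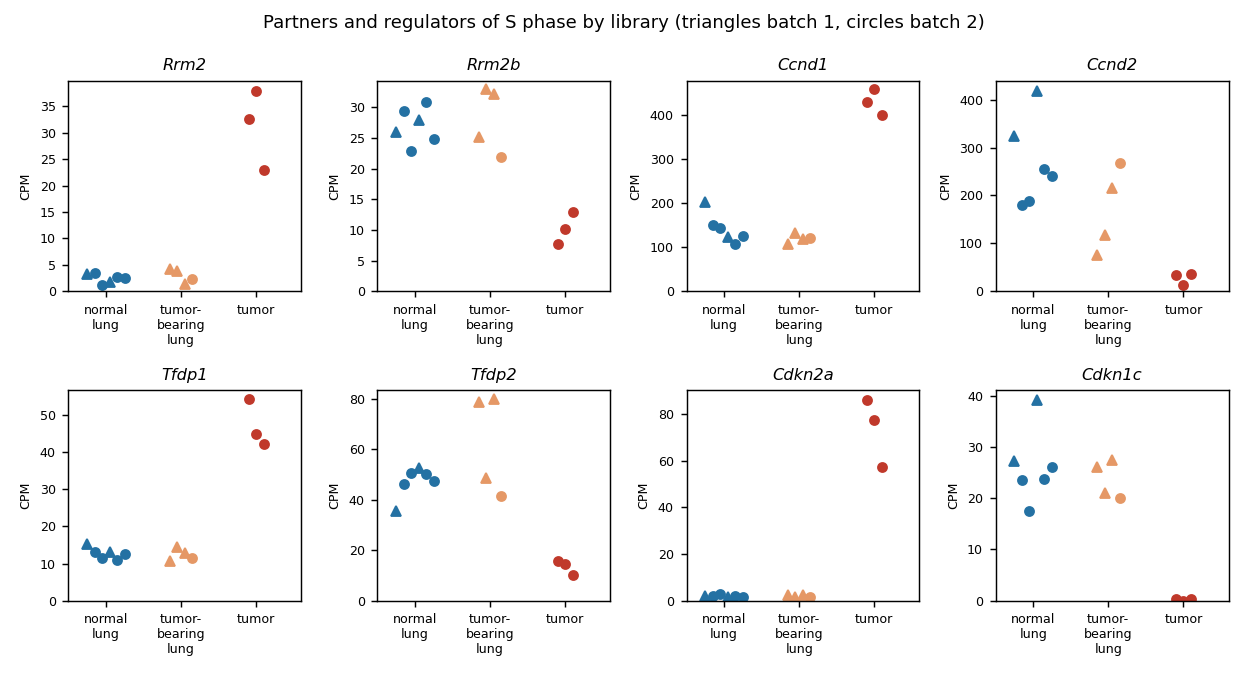
CPM in each library for 8 partners and regulators of S phase, each panel on its own linear axis from 0. Rrm2, Ccnd1, Tfdp1 and Cdkn2a are highest in the tumors, and Rrm2b, Ccnd2, Tfdp2 and Cdkn1c lowest.

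Tumors were also compared with the 4 lungs of tumor-bearing mice, in a fit of 11 libraries with group and preparation batch over 18297 genes. Of the 44 members 42 were called higher and 0 lower, where 22.6% of all genes were called higher, 23.7% lower and 46.3% either way, and 53.3% had an unadjusted p below 0.05. All 44 were positive (46.8% of all genes), with a median of 2.48. Tumors lay above all 4 lungs in 42 members, against 26.6% of all genes, and below them in 0, against 27.4%. Pold1 (log2 0.57, adjusted p 0.281) and Gins3 (1.11, 0.0626) were not called. Orc1 had 0.249, 0.772 and 1.01 CPM in lungs 6879, 6880 and 6881 and 0.290 CPM in lung 6877, and the largest log2 fold change, 5.56 (SE 1.09), from 2, 12, 14 and 3 counts in these lungs. It was 4.51 without tumor 6877 and 6.36 without normal lung 6893. These are the same 3 tumors as in the first comparison. With mouse as a replicate block, in a fit that also took in 13 libraries and tested 18796 genes, 42 members were called higher (21.7% of all genes), median 2.35. Gins3 was then called (1.22, adjusted p 0.0395) and Rpa2 was not (0.79, adjusted p 0.0689, against 0.91 and 0.0144 in the fit of 11 libraries without the block). Without lung 6877, the tumor-bearing lung of batch 2, 35 members were called. The calls of Cdc7, Gins1, Gins4, Mcm10, Pola2, Rpa1 and Rpa2 were lost. The share of all genes called in that fit is not given here, so the loss is not read as particular to these members. A fit of batch 2 alone has 1 tumor-bearing lung, so no count of calls is given from it.

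Whether a mammary tumor at a distance goes with a change of these genes in the lung was asked of 8 lungs, 1 library per mouse, with group and batch over 16727 genes. Of the 42 members tested 0 were called higher and 0 lower by edgeR, against 0.012% and 0.0239% of all genes, 0.0359% either way. Gins1 and Ccne1 were below the count filter. At an unadjusted p below 0.05, 2 members were higher and 1 lower, against 6.13% and 7.87% of all genes, 14% either way. Fold changes were positive in 19 members (51.5% of all genes) and negative in 23, with a median of -0.05. Groups were apart in 0 members higher and in 2 lower (Orc6 and Ccne2), against 2.65% and 3.05% of all genes. For Orc6 this rests on the preparation used: lung 6886 had 4.83 CPM in batch 1 and 2.98 CPM in batch 2, the latter below all 4 tumor-bearing lungs. For Ccne2 it rests on the scale: normal lung 6887 and tumor-bearing lung 6877 had 1.69 and 1.64 CPM. In TPM scaled over protein-coding genes they had 3.06 and 3.25. DESeq2 called 1 member higher and 0 lower, against 0.879% and 1.67% of all genes. By limma voom 0 members were called, but the share of all genes it called is not given here, so nothing is read from that count. The 95% interval lay within 1 log2 unit of 0 for 27 of the 42 members, and all 42 upper bounds were below 2.32, the median tumor difference. For 41 of the 42, all but Pold1, the upper bound was below the gene's own difference between tumor and normal lung.

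Rfc5, Rpa2 and Ccne2 were the 3 members with an unadjusted p below 0.05. Rfc5, the clamp loader subunit, had 6.98 and 7.19 CPM in batch 1 normal lungs and 11.6, 11.5 and 12.3 CPM in batch 1 tumor-bearing lungs, and in batch 2 18.2, 12.2, 8.26 and 10.5 CPM and 22.3 CPM. Tumor-bearing lungs were higher within each batch, and the log2 fold change was 0.83 (SE 0.15, adjusted p 0.154), or 0.76 in batch 1 alone and 0.86 in batch 2 alone, where the tumor-bearing arm is 1 library. Over 22 alternatives it ran from 0.094, with limma on log2(TPM + 1), to 0.88, and its adjusted p from 0.00403 to 0.764. DESeq2 called Rfc5, at the lowest of these adjusted p. The preparations of lung 6886 differed by 1.36 on the log2 scale for this gene, more than the groups did, and those of lung 6888 by 0.194, less than the groups did. Each pair of preparations spans the 2 batches, whereas the group difference is adjusted for batch. Rpa2 had 4.37 and 4.80 CPM and 6.71, 7.66 and 6.60 CPM in batch 1, and 6.03, 5.50, 8.26 and 6.93 CPM and 9.08 CPM in batch 2, again higher in tumor-bearing lungs within each batch (log2 0.59, SE 0.19, adjusted p 0.252). Its sign reversed with limma on log2(TPM + 1) and log2(TPM + 0.1), at -0.0194 and -0.0742. Those fits took the deposited TPM without rescaling, and the median of all genes was negative in them too. Ccne2 had 3.30 and 3.55 CPM and 1.12, 0.901 and 1.01 CPM in batch 1, and 3.27, 1.69, 2.81 and 3.01 CPM and 1.64 CPM in batch 2. In CPM it was lower in tumor-bearing lungs within each batch, by a wide margin in batch 1 (log2 -1.31, SE 0.35, adjusted p 0.200 over both batches). In batch 2 the margin was narrow, 17 counts in lung 6877 against 20 in normal lung 6887. In TPM scaled over protein-coding genes lung 6877 had 3.25 and normal lung 6887 had 3.06, so batch 2 was not apart on that scale. None of the 3 passed the edgeR threshold.

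**Figure D5:**
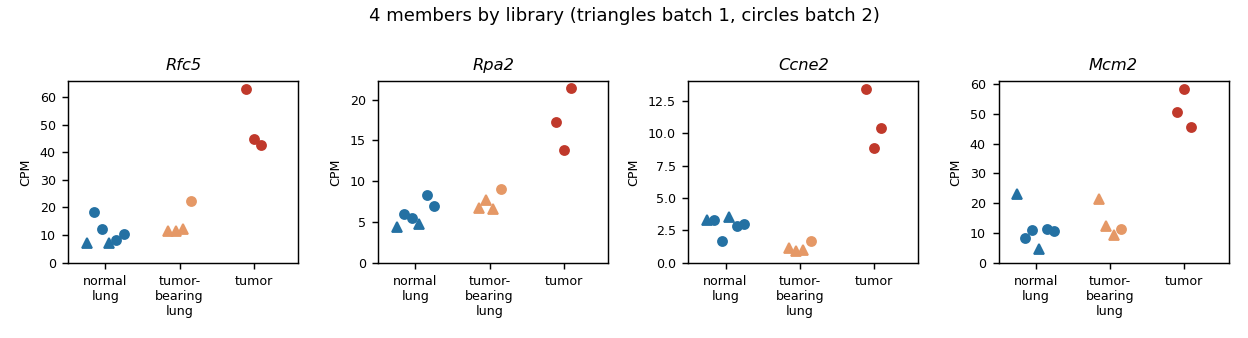
CPM of Rfc5, Rpa2, Ccne2 and Mcm2 in each library, with triangles for batch 1 and circles for batch 2. Ccne2 is lower in CPM in tumor-bearing than in normal lungs within each batch, in batch 2 by a narrow margin and with 1 tumor-bearing library. Mcm2 scatters among normal lungs from 4.44 to 22.9, and all 4 genes are highest in tumors.

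The next smallest unadjusted p in each direction belonged to Orc1 (log2 -1.21, adjusted p 0.386), Pcna (-0.33, 0.365), Rfc1 (-0.43, 0.379), Mcm10 (0.81, 0.465) and Mcm6 (0.31, 0.635). The signs of Rfc1 (0.15), Mcm10 (-0.0418) and Mcm6 (-0.00739) reversed in batch 2 alone. Pcna had 34.1 and 30.7 CPM in batch 1 normal lungs and 23.4, 20.7 and 25.5 CPM in batch 1 tumor-bearing lungs, and in batch 2 29.6, 22.5, 25.3 and 26.8 CPM and 23.8 CPM. These groups did not overlap in batch 1 and did in batch 2. Repeat preparations of the same lung, 1 in each batch, show the technical spread and the batch difference together. Over the 44 members the median absolute log2 difference between preparations was 0.435 in mouse 6886 and 0.383 in mouse 6888, against 0.392 and 0.429 over all genes. By over 1 log2 unit 5 and 4 members differed, 11.4% and 9.09%, against 13.6% and 14.4% of all genes. Mcm2 had 22.9 and 8.34 CPM in the 2 preparations of mouse 6886 and 4.44 and 11.2 CPM in those of mouse 6888.

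Of the 5 lists of other pathway genes, 0 genes were called between the lung groups by edgeR. Neutrophil markers summed to 75.7 to 178 CPM in batch 1 tumor-bearing lungs against 21.6 to 21.8 CPM in batch 1 normal lungs, and 183 CPM against 24.6 to 83.4 CPM in batch 2. All 7 of them had a positive fold change, with a median of 2.32, and an unadjusted p below 0.05, against 6.13% of all genes. Groups were apart in 3 of the 7, against 2.65% of all genes in this direction. The adjusted threshold was passed by 0 of them and by 0.012% of all genes in this direction. Alveolar type 2 markers summed to 6086 to 7770 CPM in batch 1 tumor-bearing lungs and 9441 to 10748 CPM in batch 1 normal lungs. In batch 2 the tumor-bearing lung had 14257 CPM, within the 12637 to 14496 CPM of the normal lungs. Myeloid progenitor markers summed to at most 0.797 CPM in tumor-bearing lungs, and Elane, Ctsg and Ms4a3 were at 0 in all 4. Protein-coding genes took 68.2 to 69.5% of counts in batch 1 normal lungs and 49.0 to 59.0% in batch 1 tumor-bearing lungs. The part of neutrophils, of alveolar cells and of this share in the lung values was not tested.

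Levels per length rest on the average transcript length implied by the deposited counts and TPM. Over the 44 members it was a median of 61.6% of the longest annotated coding transcript, and it was under 50% for 13. Of the genes in the ratios above, Gins2 (43.5%), Pold1 (42.7%), Rfc3 (47.1%) and, outside the 44, Rrm2b (23.6%) were under 50%. The ratios that hold these genes are less certain than the difference of one gene between tissues, in which the same length enters both sides.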

How the data were processed

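The deposited tables hold, per library, estimated counts and TPM per gene, which the authors made with Salmon on mm10 per the submitters' processing notes, which also name DESeq2 1.18.1. The ratio of deposited count to TPM of a gene differed between libraries only by a library constant (17718 genes, largest log2 deviation 1.13e-12), so the counts are scaled from TPM. They were rounded to whole numbers. Genes were named from GENCODE M21 (46201 of 46679 IDs; 478 unnamed), and 0 columns were unmapped. edgeR 4.0.16 (TMM, filterByExpr, quasi-likelihood, Benjamini-Hochberg threshold 0.05, R 4.3.3) gave every adjusted p not otherwise named; limma 3.58.1 and DESeq2 1.42.0 were alternatives. CPM used TMM-scaled sizes over 13 libraries. Tests were also run on simulated counts. These held no batch effect and no effect shared by tissues of a mouse, so that run cannot vouch for the handling of either.

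For within-library comparisons of genes, the deposited TPM were rescaled to the same total over protein-coding genes. Tumor against normal lung used batch 2 alone; the others had a batch term, with the batch 1 library of the 2 mice prepared in both batches. Tumors and lungs of mice 6877, 6880 and 6881 pair by animal; the correlations of their deviations across genes were 0.179, 0.0355 and -0.133. Full values are given for the 3 members of each role with the highest TPM, members not called in tumors against normal lung, the 4 with the smallest p in each direction in lung, and up to 3 genes of each other list. Outside the alternatives, libraries of a group came from separate mice. Their p-values measure the spread between these mice together with the technical spread of preparation, which were not separated. The fit of tumor against tumor-bearing lung without a mouse block took the tumor and lung of the same mouse as independent. Some alternatives held both preparations of the 2 mice prepared in both batches. The members and lists were chosen with earlier results of these data known. Alternatives were other scalings, filters, tests, library sets and leaving out each library.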

Additional observations from a re-analysis of the deposited data

Results flagged for a closer look

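In 7 of 88 checks of a member within a group of 4 lungs, 1 library stood further from the rest than Dixon's 95% limit, where chance gives about 1 in 20. In batch 2 normal lungs, mouse 6886 had 8.34 CPM of Mcm2 (the others 10.8 to 11.2) and 9.45 CPM of Mcm5 (5.76 to 6.29). In lungs of tumor-bearing mice, mouse 6880 had 9.59 CPM of Mcm5 (5.47 to 5.89) and mouse 6879 had 4.35 CPM of Lig1 (7.21 to 7.61). Mouse 6881 had 13.4 CPM of Pold1 (7.58 to 8.21) and 23.4 CPM of Rpa1 (29.2 to 30.2), and mouse 6877 had 22.3 CPM of Rfc5 (11.5 to 12.3), where 6877 is the only batch 2 library of that group.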

How the results depend on the processing

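All 44 members stayed positive in both tumor comparisons under every alternative run. Members called higher numbered 40 to 43 against normal lung and 35 to 43 against tumor-bearing lung (42 to 43 and 35 to 43 when 1 library was left out). The share of all genes called in each of these fits is not given here, so a lower count is not read as particular to the members. On log2(TPM + 1) the members' median was 0.73 against normal and 0.91 against tumor-bearing lung, and on log2(TPM + 0.1) it was 1.81 and 2.21. These fits took the deposited TPM, of which protein-coding genes held 3.84 to 6.98% in tumors and 1.76 to 6.44% in lungs. The part of this small share, beside the added 1 or 0.1, in these medians was not tested. Over all genes, tumor against tumor-bearing lung gave 4142 higher and 1180 lower on log2(TPM + 1), 4154 and 1987 on log2(TPM + 0.1), and 4128 and 4343 by edgeR. Upper-quartile factors moved the median of all genes from -0.02 to -0.16 and from -0.10 to -0.24. The paired fit with a replicate block, which also used 13 libraries in place of 11, called 42 members, median 2.35, and differed in the calls of Gins3 and Rpa2. Calls lost in at least 1 setting were Gins4, Pola1, Rfc1 and Rpa1 against normal lung, and Cdc7, Gins1, Gins4, Mcm10, Pola1, Pola2, Rfc1, Rfc5, Rpa1 and Rpa2 against tumor-bearing lung.

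Between lungs, DESeq2 called 1 member higher (Rfc5), and limma on either TPM scale 1 lower (Ccne2). Over all genes DESeq2 called 147 higher and 279 lower, limma 4 and 86 on log2(TPM + 1) and 4 and 61 on log2(TPM + 0.1), against 2 and 4 by edgeR. On log2(TPM + 0.1) the median was -0.54 for members and for all genes, and on log2(TPM + 1) it was -0.14 and -0.23. Signs reversed in batch 2 alone, and when the repeated mice entered with their second preparation, for Mcm10 (-0.0418 and -0.0380), Mcm6 (-0.00739 and -0.000809) and Rfc1 (0.15 and 0.15). They reversed on log2(TPM + 1) and log2(TPM + 0.1) for Mcm6 (-0.0817 and -0.25) and Rpa2 (-0.0194 and -0.0742). The TPM fits, which also gave the Ccne2 call, took the deposited TPM without rescaling between libraries. Protein-coding genes took 1.76 to 3.35% of TPM in batch 1 tumor-bearing lungs and 5.41 to 6.44% in batch 1 normal lungs. In batch 2 they took 3.71% and 4.11 to 5.24%. The causes were not tested. Lung counts, with a median of 36.0 to 86.5 per member, limit what could be detected there.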
